A study of Mus musculus with 15 samples.

Results

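MicroRNAs are short RNAs that pair with messenger RNAs and lower their stability or translation. A resting T cell that receives a signal through its antigen receptor and the CD28 costimulatory receptor leaves quiescence, grows, divides and becomes an effector cell, and its microRNA content is known to be remodelled along the way. IL-2 supports T cells after the first stimulation, and a second signal through the same receptors calls on cells that have already divided.

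The probes described here are those raised at least 2-fold at 65 h of activation in mouse CD4 T cells but changed by less than 2-fold, in either direction, at 24 h. They were selected on measured values: in the deposited table of log2 values, the mean of the 65 h arrays had to exceed the mean of the naive arrays by 1 or more, and the 24 h mean had to lie within 1 of the naive mean. Of the 44 probes that met both thresholds, 3 were set aside by number, which left 41 of the 2191 probes in the table. The values at naive, 24 h and 65 h therefore describe how the members were chosen and are given without a test. No table used here pairs the probe IDs (UCSF033_000905 and the like, written below as probe 905) with microRNA names, so neither a microRNA nor its sequence can be given, and the labelled cell type could not be checked against markers.

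The cells were CD4 T cells of C57/B6 mice aged 6 to 8 weeks, taken with magnetic beads from spleen and lymph nodes. There were 2 arrays of naive cells, and 2 for each of 5 times of activation (6, 12, 24, 42 and 65 h) on plates coated with antibodies against CD3 and CD28. A single array holds cells that were rested in IL-2 until day 7 after 65 h of activation, and 2 hold such rested cells after 18 h of restimulation. All arrays were one-colour Cy3 hybridisations of 50 ng RNA, spread over 2 slides. Separate mice or cultures behind the arrays of one group are not stated in the labels, and the p-values below therefore measure the spread between arrays, which may be technical, and the small number of arrays limits their precision.

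The first 42 h array stood apart. On it 2146 probes were above background, against 640 to 950 on the other 14, and 49.6% of its spots were marked as non-uniform. The scaled signals of the 42 h pair correlated at 0.759, against 0.942 to 0.987 for the other pairs. Its column in the deposited table nevertheless correlated with the second 42 h column at 0.990 and matched its own scanner file at a Spearman correlation of only 0.459. Tests below therefore leave this array out, which makes the 42 h group a single array, and the calls are also given with all 15 arrays.

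The members' naive level in the deposited table ran from 4.38 to 13.4 with a median of 5.92, against a median of 5.94 for the 693 table probes that entered the tests. All 41 entered them, and 38 did so through the naive, 6 h or 12 h arrays. A total of 28 were above background on all 14 arrays and 36 on both naive arrays, while probes 483, 544 and 1061 were above background on neither. The members just inside the 65 h threshold were probes 1164 and 2049, at 1.01 above naive each, and just outside it lay probes 1287 at 0.986 and 1191 at 0.971. At the 24 h threshold, probes 434 at 0.993 and 913 at 0.991 lay just inside, and probes 845 at 1.004 and 1161 at 1.01 just outside.

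Across the time course, the median member was level with naive at first and stood above it from 24 h on. In the deposited table the members' median lay -0.08 from naive after 6 h of activation and 0.02 after 12 h. It had reached 0.37 by 24 h, 0.996 by 42 h and 1.28 by 65 h, and stood at 1.53 on day 7 and 1.60 after restimulation. The corresponding medians over the 693 tested table probes stayed between -0.12 and 0.04 at all of these times. Since every one of these differences shares the naive arrays with the rule, they are descriptions. By 42 h, 20 of the 41 members were at least 1 above naive, against 12.7% of tested table probes. At day 7 the number was 28, against 12%, and after restimulation it was 29, against 15%.

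A late difference was not the whole pattern for every member. Probes 454, 695, 912, 913 and 2000 already had means at least 1 above naive at 6 h or 12 h. A total of 7.5% of tested table probes reached that level. All 5 did so at 12 h, and the rule held their 24 h mean to less than 1 above naive. Their lower mean at 24 h than at 12 h was therefore fixed in advance. Probe 2000 read 13.10 and 13.14 in naive cells, 14.23 and 13.61 at 6 h, and 15.23 and 13.59 at 12 h. Its 12 h level thus came mainly from the first array. For the means of these 5 probes, the description of a rise only after 24 h goes against the data. The scanner signal, from which background had been subtracted, is a different scale. There the members' median difference from naive was 0.76 at 24 h and 2.68 at 65 h, against 0.004 and 0.59 over all tested probes. At 24 h, 18 of the 41 were at least 1 above naive, as were 15.3% of all tested probes. On that scale the 24 h limit of the rule did not hold for these 18. Probes 483, 544, 697, 846, 1061 and 1255 read the floor given to dim signals on both naive arrays. The floor therefore sets the size of their differences from naive. The naive and 24 h arrays chose the members, so nothing further is read from that share.

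Members next to each other in the probe numbering mostly moved as one. Of the 13 pairs of members with consecutive numbers, 10 kept their differences from naive within 0.4 of each other on every array of the deposited table. The exceptions were probes 450 and 451 (largest gap 2.65), 1061 and 1062 (1.45) and 690 and 691 (0.618). The same share over all consecutive probes of the table was not computed, and the rule itself selects members for alike values at 24 h and 65 h. Members with neighbouring numbers may therefore not be independent observations, and 23 of the 41 members had an adjacent member. The counts of members in this report are counts of probes and were not corrected for this. Whether they measure the same or related microRNAs could not be checked without names. The patterns below were drawn up from the means in the deposited table after its values were seen, and they serve only to order the description.

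Probes 905, 906 and 907 stayed at or below their naive level through 42 h and then rose steeply. In the deposited table, probe 905 read 5.71 and 5.27 in naive cells, 5.37 and 5.15 at 6 h, 5.33 and 4.96 at 12 h, 5.01 and 4.68 at 24 h, and 5.28 and 5.06 at 42 h. It then read 8.21 and 8.49 at 65 h, 9.97 at day 7, and 9.11 and 10.98 after restimulation. The 10 arrays up to 42 h and the 5 later ones did not overlap, with the first step between 42 and 65 h. The naive, 24 h and 65 h arrays among them chose the members, so part of this separation follows from the rule. The share of all probes separated in this way was not computed. The day 7 level was a further 1.503 to 1.61 above the 65 h mean in these 3 probes. Probe 906 had the largest 65 h rise of all members (2.95). Its differences from naive stayed within 0.257 of those of probe 905 on every array, and those of probe 907 within 0.223 of its own. The scanner file of the first 42 h array did not share this pattern: there probe 905 read 0.55 in scaled log2 signal, against -6.11 on the second 42 h array, whereas both 42 h columns of the deposited table were low.

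Probes 810, 811, 812, 814 and 815 moved in 2 stages, with a small step by 65 h and a larger one during rest. Probe 814 read, in the deposited table, 5.23 and 5.07 in naive cells, 5.08 and 4.94 at 6 h, 5.17 and 4.90 at 12 h, and 5.07 and 4.89 at 24 h. It read 5.32 and 5.67 at 42 h, 6.54 and 6.81 at 65 h, 8.70 at day 7, and 7.38 and 8.50 after restimulation. In that table all 5 probes were highest on the day 7 array, between 3.37 and 3.58 above naive, compared with 1.26 to 1.56 at 65 h. The restimulated arrays lay below day 7 but above both 65 h arrays there. In the scaled signal, by contrast, the second restimulated array was above day 7 in all 5, as in probe 814 with -1.29 against -1.55.

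Probes 544, 946, 948 and 949 also had their highest group mean at day 7, but their restimulated arrays split the other way. Probe 948 read, in that table, 6.09 and 5.73 in naive cells, 6.07 and 5.74 at 24 h, 6.49 and 6.79 at 42 h, and 6.90 and 7.49 at 65 h. It read 8.91 at day 7, and 8.67 and 7.12 after restimulation. In probe 948 the first restimulated array thus stood near day 7 and the second within the range of the 65 h arrays. In probes 544 and 946 the second restimulated array lay below both 65 h arrays. It read 5.28 against 5.44 and 5.49 in probe 544, and 7.17 against 7.38 and 8.26 in probe 946. Across these 4 probes the second restimulated array was lower than the first by 1.18 to 2.16. In probes 905 to 907 it was higher by 1.86 to 1.87, and in probes 810 to 815 by 1.05 to 1.28.

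The largest pattern, 14 members, was a step by 42 h or 65 h that was mostly kept: the day 7 level lay between -0.28 and 1.32 from the 42 h mean. It held probes 451, 459, 460, 469, 470, 483, 690, 691, 692, 1045, 1054, 1061, 1062 and 1067. Probes 451, 459 and 460 were only 0.20 to 0.31 above naive at 42 h, so their distance from 42 h includes their rise. Measured from the 65 h mean, the day 7 level of the 14 lay between -0.48 (probe 1061) and 0.46 (probe 460). Probe 483 was already 0.85 above naive at 12 h, and the 65 h arrays of probe 1061 read 6.61 and 5.20. In the deposited table, probe 1045 read 6.22 and 5.89 in naive cells, 5.78 and 5.53 at 6 h, 6.13 and 5.85 at 12 h, and 7.04 and 6.65 at 24 h. It read 7.79 and 8.21 at 42 h, 8.15 and 8.27 at 65 h, 7.90 at day 7, and 7.27 and 7.61 after restimulation. Probe 1067 first dipped, from 8.09 and 7.58 in naive cells to 6.88 and 7.33 at 6 h, and then read 9.71 and 9.40 at 42 h, 10.28 and 9.99 at 65 h, 10.11 at day 7, and 9.88 and 10.67 after restimulation. Both probes were higher on every array from 42 h on than on any array before, which for the naive, 24 h and 65 h arrays partly follows from the rule.

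In 9 members without the early rise described below, the day 7 level was at least 0.4 below the 42 h mean. Sorting used the distance from the 42 h mean and not from naive. Probe 1061, 0.70 above naive at day 7, thus fell in the kept pattern. In the scaled signal probe 1255 was also well above naive at day 7, at -5.49 against -7.42 on both naive arrays. Probes 434, 450, 846, 1106, 1108, 1164, 1255, 1834 and 2049 lay, in the deposited table, 0.87 to 1.65 above naive at 42 h and 1.01 to 1.55 at 65 h, but only -0.12 to 0.65 above it at day 7. Probe 450 read, in the deposited table, 9.31 and 8.95 in naive cells, 9.71 and 9.98 at 24 h, 10.61 and 10.65 at 42 h, and 10.71 and 10.38 at 65 h. It read 9.26 at day 7, and 8.70 and 8.78 after restimulation, below both naive arrays. This order depended on the scale: in the scaled signal probe 450 read -1.31 and -1.83 in naive cells and -1.39 and -1.03 after restimulation, so that the restimulated mean was the higher.

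The remaining 6 members, probes 454, 695, 697, 912, 913 and 2000, stood higher early, with means at least 0.75 above naive at both 6 h and 12 h. Probe 695, whose 65 h rise of 2.93 was close to that of probe 906, read 6.94 and 6.57 in naive cells in the deposited table and already 8.43 and 7.87 at 6 h. It read 8.56 and 7.68 at 12 h, 8.12 and 7.20 at 24 h, 7.54 and 8.09 at 42 h, and 9.35 and 10.02 at 65 h. It read 8.48 at day 7, and 8.61 and 8.98 after restimulation. In the deposited table all arrays after naive were higher than both naive arrays, and the 65 h arrays were higher than all others. For the naive, 24 h and 65 h arrays this order partly follows from the rule. In the scaled signal the second restimulated array (-0.78) was above the first 65 h array (-0.86).

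The difference between the day 7 array and the mean of the 42 h columns in the deposited table served to sort the members above, and its counts are a description. A total of 15 of 41 members were at least 1 higher at day 7 than at 42 h, against 9.24% of tested table probes, and 4 were at least 1 lower, against 10.4%. Day 7 is a single array, so the difference has no replicate check.

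The restimulated arrays often disagreed in these members. They differed by 1 or more in the deposited table in 15 of 41 members (36.6%) and in 117 of 693 tested table probes (16.9%). Among the members the second array was the higher in 9 of these and the lower in 6. Most belonged to the patterns above with a step only after 42 h or the highest mean at day 7. These were 12 of the 15: probes 544, 810 to 815, 905 to 907 and 946 to 949.

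The tested differences were taken only between arrays the rule had not used, with 6 h and 12 h together as the early group (4 arrays). The fit itself held all 14 arrays. The naive, 24 h and 65 h arrays thus still entered its scaling, filter and shared spread. Differences are in log2 of the scaled scanner signal with their standard error, and a call is an adjusted p below 0.05 in limma over the 882 probes tested. The day 7 group and the 42 h group each hold a single array in this fit, so the spread behind their tests comes wholly from the other groups and the lone array is assumed to vary like them. Values given per slide compare the arrays of that slide only. Probes 544, 1061 and 1255 read the floor given to dim signals on all 4 early arrays. The floor therefore sets the size of their differences from the early group.

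Between 6 h and 12 h, no member passed, as no probe did (0% called, 24 probes and 3 members at an unadjusted p below 0.05). The largest differences among members were 1.104 (SE 0.45, limma adjusted p = 0.989) for probe 846 and -0.46 (SE 0.79, limma adjusted p = 0.989) for probe 907. The members' median difference was 0.06, against 0.00 for all tested probes.

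At 42 h, 19 of 41 members were higher than in the early group and 0 were lower, where 14.3% of all tested probes were called higher. The members' median difference was 1.43, against 0.24 over all tested probes. Of probes 905 to 907, 0 of 3 passed, with differences of 0.17 to 0.48. Probe 1045 rose by 3.42 (SE 0.51, limma adjusted p = 0.00505), with 2.99 on slide 1, the one that held the 42 h array. Probe 1067 rose by 2.85 (SE 0.43, limma adjusted p = 0.00505), with 2.89 on slide 1. With all 15 arrays, 25 members were called higher, where 20.1% of probes were, and the medians were 2.36 for members and 1.099 for all tested probes. Probes 1045 and 1067 were then higher by 3.28 and 3.43 (limma adjusted p = 0.00353 for each).

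At day 7, 24 of 41 members were higher than in the early group and 0 were lower, where 5.67% of all tested probes were called higher. The members' median difference was 2.20, against 0.17 over all tested probes. The 24 were probes 459, 460, 469, 470, 544, 690 to 692, 810 to 815, 905 to 907, 946 to 949, 1045, 1054, 1062, 1067 and 1255, where a range covers members only. Probe 905 rose by 6.24 (SE 0.87, limma adjusted p = 0.00424), with 5.67 on slide 1, and probe 906 by 6.21 (SE 0.83, limma adjusted p = 0.00328), with 5.70 on slide 1. Probes 810 to 815 were higher by 4.96 to 5.46. The call of probe 544 is no support, since it entered the test only through the 65 h and restimulated arrays, where it is high. The 1 member below the early group was probe 1106, at -0.03 (SE 0.37, limma adjusted p = 0.989), which did not pass.

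The day 7 calls depended on the first 42 h array, although it is in neither group of this comparison. With all 15 arrays, 4 members were called higher, where 1.21% of probes were. The differences of probes 905 and 906 were then 6.19 and 6.16, with standard errors of 1.91 and 1.91 and limma adjusted p = 0.191 and 0.194.

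After restimulation, 34 of 41 members were higher than in the early group and 0 were lower, where 20.2% of all tested probes were called higher. The members' median difference was 2.44, against 0.34 over all tested probes. The 7 that did not pass were probes 434, 450, 1106, 1164, 1834, 2000 and 2049. Probes 544 and 1061 entered the test only through the 65 h and restimulated arrays, where they are high, and their calls here are therefore no support. Probe 905 rose by 6.64 (SE 0.68, limma adjusted p = 0.000375), or 7.18 within slide 1 and 6.10 within slide 2. Probe 906 rose by 6.63 (SE 0.64, limma adjusted p = 0.000275), with 7.20 and 6.06. With all 15 arrays, 22 members were called higher, where 6.15% of probes were. The 42 h, day 7 and restimulated comparisons share the early arrays and are not independent of each other.

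Restimulated cells did not differ from the day 7 array by a call in any member or any other probe (0% called; 78 probes and 2 members at an unadjusted p below 0.05). The largest values were 1.81 (SE 0.99, limma adjusted p = 0.589) for probe 454 and -0.98 (SE 0.61, limma adjusted p = 0.645) for probe 544. With 1 array against 2, this does not show that the levels were alike.

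Set against 42 h, restimulated cells had 3 members higher and 1 lower, where 0.907% of all tested probes were called in each direction. The members' median difference was 1.001, against -0.02 over all tested probes. The 3 were probes 905, 906 and 907. Probe 907 rose by 6.38 (SE 0.96, limma adjusted p = 0.0218), with 7.50 on slide 1, and probe 906 by 6.33 (SE 0.90, limma adjusted p = 0.0171), with 7.41 on slide 1. Both were not well above background on the 42 h array. Their mean signals over both restimulated arrays were therefore at least 76.7-fold and at least 78.6-fold higher, where the 42 h level is set to the dimmest signal that counted as well above background, unless the probe itself read higher. The restimulated arrays differed in this: without the second one the differences were 5.32 for probe 907 and 5.31 for probe 906, and in the deposited table they were 4.83 and 5.01. Probe 905, named to complete the count, was 6.16 higher (SE 0.96, limma adjusted p = 0.0228).

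Probe 450 went the other way and fell by 1.71 (SE 0.33, limma adjusted p = 0.0473), with a fall of 1.53 on slide 1. It lost its call under 17 of the alternative settings, in each case with the same direction. With all 15 arrays, 0 members were called in this comparison, where 0.659% of probes were. The differences of probes 906 and 907 were then 2.93 and 2.91 (limma adjusted p = 0.322 and 0.339), and that of probe 450 was -1.09 (limma adjusted p = 0.251). With slide as a block, 14 members were called higher (3.74% of probes) and 1 lower (2.38%). In the deposited table, 11 were higher (5.63%) and 2 lower (5.92%). The number of members that changed between 42 h and restimulation therefore varied from 0 to 22 with the processing, while the single 42 h array in the fit gives no spread of its own.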

How the data were processed

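The 15 deposited scanner files hold background-subtracted spot intensity, and per the file headers the software was Feature Extraction 10.1.1.1 (version 10.6 in the submitters' processing notes). Values in the deposited table are log2. The steps by which the authors made them are not stated here, and scale and centring stay unknown. Its column medians lay between 4.38 and 4.41, and on 14 arrays it had the ranks of the median spot signal.

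The members and every list, comparison and pattern were chosen with earlier results of these data known. Control, non-uniform and outlier spots were left out, and intensities were averaged per probe, divided by the array's 75th percentile over 571 probes detected on every one of the 14 arrays, given a floor of 0.583% of it and taken to log2. A detected probe had more than 50% of its spots well above background, and a tested one was detected on both arrays of a group (882 of 2500). Groups were fitted with limma 3.58.1 in R 4.3.3 (6 residual degrees of freedom), with Benjamini-Hochberg adjustment within each of 6 comparisons. Probes named were the 2 largest per direction among members past the threshold and changed alike on both slides, or the 1 largest where none passed. For a single array, the other group had to lie wholly on one side. The 2 largest at 65 h and those nearest each threshold were added. Any other probe was named once its values were known.

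The procedure was tested on simulated data for restimulated against early (882 probes): 35% of changes of 1 log2 and 87% of changes of 2 were recovered, and 6.87% of calls were false. The simulated arrays varied independently, without a floor or a shared slide effect. These rates therefore need not hold for the real arrays, and they do not cover the comparisons with a single array. Arrays on one slide deviated together, with correlations from 0.0845 to 0.825 and a median of 0.354 over 15 pairs of groups. The main fit had no slide term, and slide was a block only among the alternatives. MicroRNA lists were not tested, since probes have no names here. Alternatives changed scaling, floor, filter, blocks, arrays and the rule's thresholds.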

Additional observations from a re-analysis of the deposited data

How the results depend on the processing

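No call of a named member changed direction under any alternative run, and 24 lost significance, 17 of them for probe 450 (restimulated against 42 h). Members called at 42 h against early numbered 12 in the deposited table without the first 42 h column, 9 with the percentile over all probes, 12 with only probes detected on every array (28 members left), 10 with no filter and 12 with a 65 h threshold of 1.2, which leaves 25 members. At day 7 against early they numbered 4 with all 15 arrays and 15 with only probes detected on every array, and for restimulated against early 22 and 20. For restimulated against 42 h they numbered 0 with all 15 arrays, with only probes detected on every array and with no filter. They numbered 13 in the deposited table, 12 without its first 42 h column, 8 with quantile normalization, 10 with normexp and 15 with slide as a block. The deposited table with a slide block, chosen after seeing the data, gave 22. Leaving out 1 array gave 13 to 24, 22 to 27, 28 to 34 and 1 to 9 members in these 4 comparisons. The last range fell to 1 and 2 without the first and second 24 h array and rose to 9 without the first restimulated array. The cause was not tested. The 12 h against 6 h and restimulated against day 7 comparisons called 0 members throughout.

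Scaling to the percentile over all probes moved the median of all tested probes from 0.24 to -0.21 at 42 h, from 0.17 to -0.15 at day 7 and from 0.34 to -0.03 after restimulation, and the members' medians to 0.79, 1.72 and 1.92. The titles only mark the second array of each pair with the word Replicate. With this mark as a block, 31 members were called for restimulated against early. The members' median differences were then 1.48 at 42 h and 2.23 at day 7 against early, and 0.96 for restimulated against 42 h. Deviations of arrays with the same mark correlated between -0.825 and 0.755, so the pairing is not borne out.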
